A study of Mus musculus with 7 samples.

Results

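The 30 genes described here encode the machinery of autophagy and the lysosome, and were taken from a list of symbols matched to the rows of a gene count table. All 30 were found among its 53819 genes, and all 30 passed the filter on low counts that left 14935 genes for testing. The counts came from RNA of the quadriceps, the large thigh muscle, of male wild-type C57BL/6J mice. Each mouse had been given 200 µl of an AAV8 vector (adeno-associated virus of a serotype that favours the liver) by the tail vein at an age of 8 weeks, with collection of muscle 54 days later. The 4 control libraries (AAV8-Null) came from mice given AAV8-Alb-Null, the empty vector, and the 3 others (AAV8-IGFBP1) from mice given AAV8-Alb-IGFBP1. IGFBP1 is a secreted protein that binds insulin-like growth factors. All mice therefore carried a vector, and no mouse without one is among the samples. The labels do not say that each library came from its own mouse, so the p-values measure the spread between these libraries, which may be technical.

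Autophagy is the route by which a cell encloses proteins and organelles in a double membrane, the autophagosome, and delivers them to lysosomes for breakdown. The ULK1 kinase complex starts the process, a lipid kinase complex with Beclin 1 nucleates the membrane, and a ubiquitin-like conjugation system attaches ATG8 proteins (the LC3 and GABARAP families) to it, where receptors dock their cargo. In skeletal muscle, fasting and loss of insulin or IGF signalling induce many of these genes through FoxO factors, and TFEB and TFE3 switch on lysosomal genes through the E-box CACGTG. Much of autophagy is controlled on proteins, by phosphorylation and lipidation, which RNA counts do not measure.

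Upstream sequences are shown for 3 of the 7 genes that carry that E-box in a promoter window, to set beside the difference in Tfeb RNA described below. Lamp1 and Ctsd are lysosomal genes and Bnip3 is a mitophagy gene. Atg5, Atg7 and Ctsl also have an E-box before the start, but their stretches were not wholly outside the RefSeq gene and are not shown. The sequences are from RefSeq on GRCm38.p6, are read 5′ to 3′ on the strand of the gene, and end at or before its start. Capitals mark each E-box. The Lamp1 stretch (chr8:13159075-13159160, plus strand) holds 4 copies, at 61, 45, 28 and 15 bases before the start. The Ctsd stretch (chr7:142387895-142387950, minus strand) holds 1 copy at 98 bases, and Ctsd has a further copy at 245 bases. The Bnip3 stretch (chr7:138909584-138909639, minus strand) holds 1 copy at 108 bases.
Lamp1: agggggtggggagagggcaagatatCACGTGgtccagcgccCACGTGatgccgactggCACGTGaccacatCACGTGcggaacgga
Ctsd: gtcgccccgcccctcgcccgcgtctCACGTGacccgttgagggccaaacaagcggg
Bnip3: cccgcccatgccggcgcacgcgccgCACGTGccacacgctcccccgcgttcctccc

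RefSeq promoter windows, 250 bases before to 50 after a start, were at hand for 24 of the 30 genes (28 windows). CACGTG, which reads the same on both strands, was found in 7 of the 28 windows, those of Atg5, Atg7, Atg14, Bnip3, Ctsd, Ctsl and Lamp1, and in 7.15% of all 32851 windows. None of the 3 Tfeb windows held it. The FoxO core GTAAACA, searched on both strands, was in 0 of the 28 windows and in 3.65% of all windows. A match describes the letters of a window and does not show that a factor binds there.

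The libraries held 38947453 to 51210360 counts. Igfbp1 transcripts were at 0, 0, 0 and 8 counts in AAV8-Null replicates 1 to 4 and at 202, 1425 and 142 in AAV8-IGFBP1 replicates 1 to 3. All 10 markers of skeletal muscle were present, at a summed level of 134822 to 166208 CPM, the counts scaled to library size. AAV8-IGFBP1 replicate 2 stood apart in adipocyte markers, with 1750 summed CPM over 11 genes against 264 to 520 in the other 6 libraries. Slow fibre markers summed to 675 to 2064 CPM in AAV8-Null and 307 to 933 in AAV8-IGFBP1, and 9 of the 10 had a value below 0 (median log2 fold change -1.44, 6 with an unadjusted edgeR p under 0.05). Fibroblast markers summed to 1033 to 1479 CPM and 640 to 1066 CPM, with 10 of 10 below 0 (median -0.39, 4 with an unadjusted edgeR p under 0.05). All 10 tenocyte markers were below 0 (median -0.44) and all 11 adipocyte markers above 0 (median 1.06). By edgeR's adjusted p 0 markers of these 4 lists passed, while DESeq2 called 1 slow fibre and 2 fibroblast markers, all below 0. The part of the fibroblast, tenocyte and adipocyte shifts in the values below was not tested.

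The comparison asked whether RNA of these genes in muscle differed between the AAV8-IGFBP1 and AAV8-Null groups. None of the 30 reached an adjusted p under 0.05 by edgeR's quasi-likelihood method, which 0.556% of all tested genes did (83 of 14935). Over all genes that count was 19 or 52 when AAV8-Null replicate 1 or 3 was left out, and 28 or 23 when AAV8-IGFBP1 replicate 1 or 2 was. Among the 30, DESeq2 called 1 gene, Tfeb, against 2.91% of the 15084 genes with an adjusted p by that tool, which was run with its own filtering in place of the filter on low counts, and limma-voom called 0. At an unadjusted edgeR p under 0.05 there were 6, namely Tfeb, Map1lc3b and Ulk2 with log2 fold changes above 0 and Optn, Wipi1 and Map1lc3a below. The same holds for 12.6% of all tested genes. In bulk muscle, fewer cells of a type and less RNA per cell cannot be told apart.

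The fitted differences were small on both sides of 0. Log2 fold changes, AAV8-IGFBP1 over AAV8-Null, ran from -0.30 for Optn to 0.29 for Tfeb, with 20 above 0 and 10 below. Their median was 0.06, beside -0.00065 over all genes tested, and their median size 0.11, beside 0.13. The median standard error was 0.077 for the 30 and 0.132 over all genes tested, so these sizes carry unlike error. Of all genes tested, 49.9% had a log2 fold change above 0. For 18 of the 30 the estimate lay within 1.1-fold either way, and for 9 the standard error exceeded the estimate. The 95% intervals, each taken alone, lay within 0.692-fold and 1.36-fold for all 30, so none reached 1.5-fold in either direction. Replicates were close: the median coefficient of variation over the 30 was 6.00% in AAV8-Null and 4.75% in AAV8-IGFBP1, and no gene had fewer than 224 counts in any library.

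**Figure D1:**
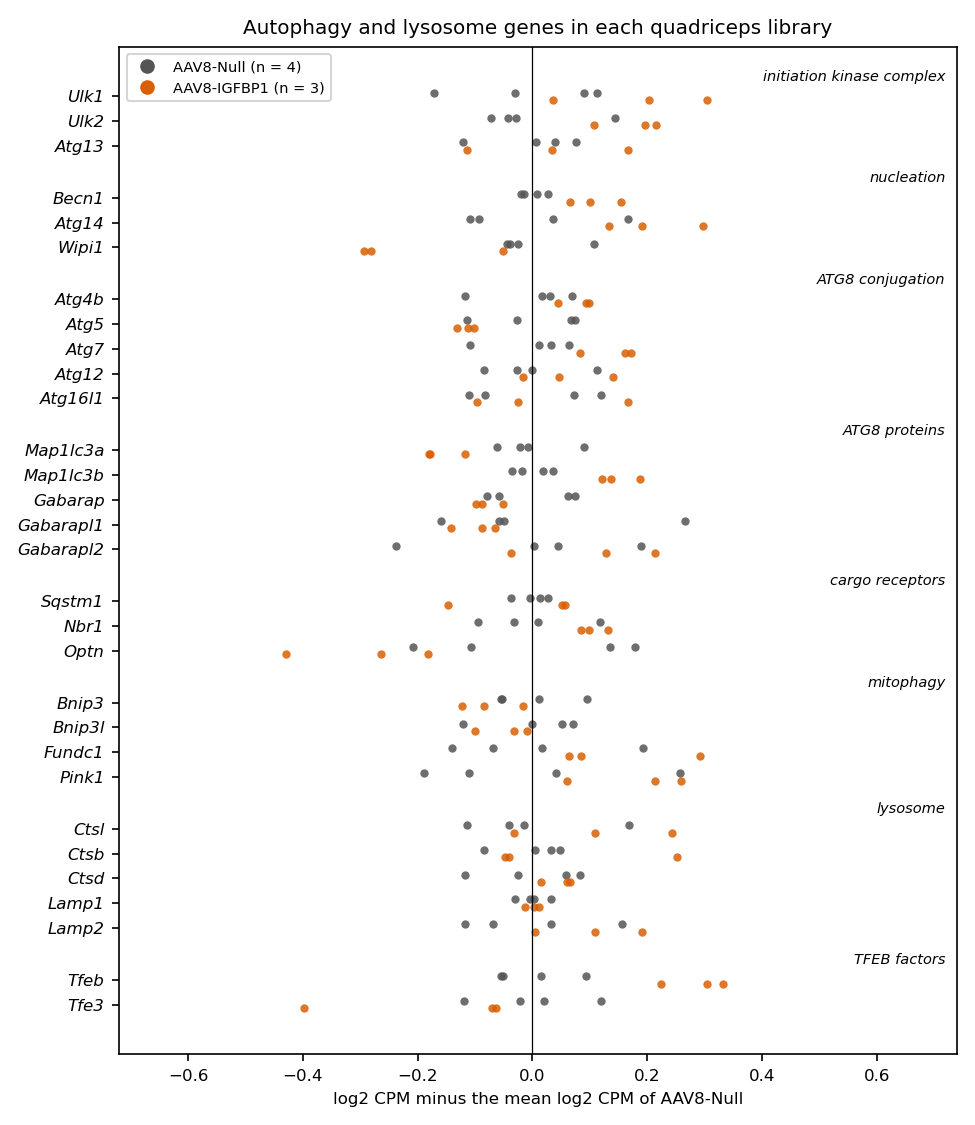
Each point is 1 library, placed by its log2 CPM minus the mean log2 CPM of the AAV8-Null libraries, for the 30 genes grouped by role (grey, AAV8-Null, n = 4, and orange, AAV8-IGFBP1, n = 3). Orange and grey points intermingle for 24 genes, while all 3 orange points lie to the right for Tfeb, Map1lc3b, Becn1 and Atg7 and to the left for Map1lc3a and Wipi1.

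In 6 of the 30 genes the groups did not overlap, 4 with AAV8-IGFBP1 above and 2 below. Over all genes tested the groups did not overlap for 12.3%. None of these 6 passed edgeR's test.

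Tfeb, which encodes the master transcription factor of lysosomal genes, had the largest log2 fold change above 0. It lay at 59.5, 53.9, 53.7 and 56.4 CPM in AAV8-Null replicates 1 to 4. In AAV8-IGFBP1 replicates 1 to 3 it lay at 69.0, 65.2 and 70.3 CPM. The lowest AAV8-IGFBP1 library was thus above the highest AAV8-Null library. The log2 fold change was 0.29 (SE 0.06; 95% interval 0.15 to 0.42), a 1.22-fold difference, and at an adjusted p by edgeR of 0.0775 it did not pass. By DESeq2 the log2 fold change was also 0.29 and the adjusted p 0.00510, and edgeR without the filter on low counts gave 0.0277. Over all 15 alternatives the adjusted p ran from 0.00510 to 0.276, and with any 1 library left out the log2 fold change ran from 0.26 to 0.32. Tfe3, the related factor of the same family, was at 9.08 to 10.7 CPM in AAV8-Null and at 7.47, 9.43 and 9.39 CPM in AAV8-IGFBP1. Its groups overlapped, and its log2 fold change of -0.17 (SE 0.11) had an adjusted p by edgeR of 0.549.

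The lysosomal genes did not pass the test, and their values were close in both groups. Lamp1, an abundant glycoprotein of the lysosomal membrane, was at 351, 359, 357 and 367 CPM in AAV8-Null and at 355, 359 and 361 in AAV8-IGFBP1. Its 95% interval, -0.12 to 0.12 on the log2 scale around an estimate of 0.00046, reached no further than 1.09-fold on the upper side. Ctsd, the aspartic protease cathepsin D, was at 488, 480, 453 and 424 CPM against 480, 465 and 482 (log2 fold change 0.04, SE 0.07, adjusted p by edgeR = 0.837). The AAV8-IGFBP1 values of both genes lay inside the range of the AAV8-Null values. Ctsb, the cysteine protease cathepsin B, was at 197 to 216 CPM in AAV8-Null and at 202, 248 and 203 in AAV8-IGFBP1. Its high value came from AAV8-IGFBP1 replicate 2, and its log2 fold change of 0.06 was -0.04 without that library. Adipocyte markers and Igfbp1 counts were both highest there. Summed macrophage markers (125.9 CPM, next 125.5) and blood cell markers (306 CPM, next 293) were highest there too, by little. The part of any of these in the Ctsb value was not tested. Ctsl, cathepsin L, and Lamp2, the membrane protein that serves as receptor in chaperone-mediated autophagy, had log2 fold changes of 0.11 and 0.10 (adjusted p by edgeR = 0.662 and 0.659). All 15 macrophage markers were present too, at 78.2 to 125 CPM summed in AAV8-Null and 66.9 to 126 in AAV8-IGFBP1, and for 8 of these 15 the estimate was below 0.

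The 7 genes with an E-box in their window had estimates on both sides of 0, and whether TFEB acts on them was not tested. Their log2 fold changes were -0.12 for Atg5, -0.08 for Bnip3, 0.00046 for Lamp1, 0.04 for Ctsd, 0.11 for Ctsl, 0.14 for Atg7 and 0.21 for Atg14.

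**Figure D2:**
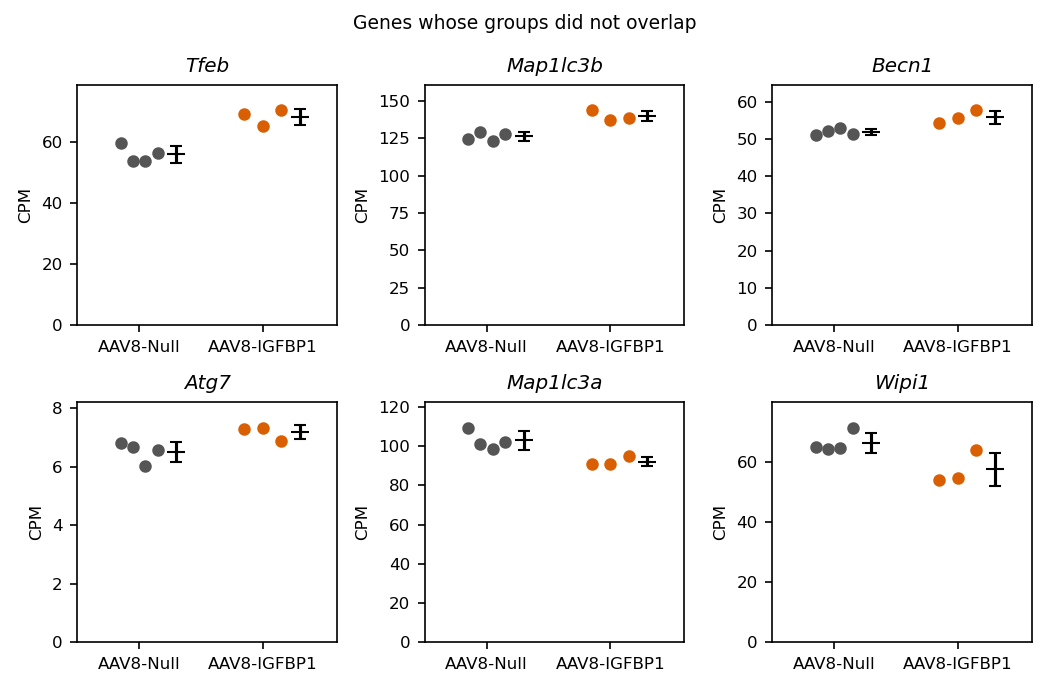
CPM on linear axes from 0 in each library for the 6 genes whose groups did not overlap (points, AAV8-Null grey and AAV8-IGFBP1 orange), with the mean and SD beside them (n = 4 and 3). The gaps are narrow against the levels, as for Becn1, where 52.8 CPM was the highest AAV8-Null value and 54.2 the lowest AAV8-IGFBP1 value.

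The ATG8 proteins coat the growing autophagosome and bind the receptors. Within this family the LC3 genes differed from each other in direction. Map1lc3b was at 125, 129, 123 and 128 CPM in AAV8-Null and at 144, 137 and 139 in AAV8-IGFBP1, with no overlap (log2 fold change 0.15, SE 0.05, adjusted p by edgeR = 0.282). Map1lc3a was at 109, 101, 98.4 and 102 CPM against 90.6, 90.7 and 94.7, also with no overlap, in the other direction (log2 fold change -0.16, SE 0.06, adjusted p by edgeR = 0.296). Neither passed the test. The ratio of Map1lc3b to Map1lc3a within a library, picked after these values were seen, was 1.14, 1.28, 1.25 and 1.25 in AAV8-Null and 1.59, 1.51 and 1.47 in AAV8-IGFBP1. Both genes were already apart in opposite directions, so this ratio was bound to separate the groups and adds no evidence. The GABARAP genes overlapped between the groups. Their log2 fold changes were -0.08 for Gabarap, -0.11 for Gabarapl1 and 0.10 for Gabarapl2, with adjusted p-values by edgeR of 0.634 to 0.748. Gabarapl1, a FoxO3 target in muscle, spread more in AAV8-Null (37.6 to 50.4 CPM) than in AAV8-IGFBP1 (38.0 to 40.1 CPM), with AAV8-Null replicate 4 highest.

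The enzymes that attach ATG8 to lipid had log2 fold changes between -0.12 and 0.14. Atg7, the activating enzyme of both conjugation reactions, was at 6.80, 6.65, 6.02 and 6.55 CPM in AAV8-Null and at 7.27, 7.33 and 6.89 in AAV8-IGFBP1. The groups did not overlap, though AAV8-IGFBP1 replicate 3 and AAV8-Null replicate 1 were close, and the log2 fold change of 0.14 (SE 0.09) gave an adjusted p by edgeR of 0.577. Atg5, which joins Atg12 in the conjugating complex, was at 8.40 to 9.57 CPM and at 8.30 to 8.47 CPM, and the groups overlapped by AAV8-Null replicate 4 alone. Atg4b, the protease that primes ATG8, had a log2 fold change of 0.08, Atg12 one of 0.06 and Atg16l1, which places the complex on the membrane, one of 0.02. Their adjusted p-values by edgeR were 0.707 to 0.963.

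Among the genes that start autophagy, both ULK kinases had estimates above 0. Ulk2 was at 117, 132, 115 and 113 CPM in AAV8-Null and at 138, 128 and 136 in AAV8-IGFBP1 (log2 fold change 0.17, SE 0.07, adjusted p by edgeR = 0.339). Ulk1 was at 97.2, 118, 117 and 107 CPM and at 126, 112 and 135 (0.18, SE 0.09, 0.432). AAV8-Null replicate 2 lay above AAV8-IGFBP1 replicate 2 for both kinases, so the groups overlapped. Atg13, the scaffold of the kinase complex, had a log2 fold change of 0.03 (adjusted p by edgeR = 0.908).

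Of the nucleation genes, Becn1, which encodes Beclin 1, was at 51.1, 52.1, 52.8 and 51.3 CPM in AAV8-Null and at 54.2, 55.5 and 57.7 in AAV8-IGFBP1. The groups were apart with a small difference, a log2 fold change of 0.11 (SE 0.05, adjusted p by edgeR = 0.434). Atg14, the subunit that directs the Beclin 1 complex to autophagosomes, had 0.21 (SE 0.10, adjusted p by edgeR = 0.454) with overlapping groups. Wipi1, a reader of the lipid that this complex makes, went the other way. It was at 65.0, 64.2, 64.4 and 71.3 CPM in AAV8-Null and at 54.0, 54.4 and 63.8 in AAV8-IGFBP1 (log2 fold change -0.21, SE 0.07, adjusted p by edgeR = 0.307). AAV8-IGFBP1 replicate 3 sat just under the AAV8-Null libraries, and the other two were well below.

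Cargo receptors link ubiquitin-tagged material to ATG8. Optn, which encodes optineurin, a receptor in mitophagy, had the lowest log2 fold change of the 30, -0.30 (SE 0.10; 95% interval -0.53 to -0.06; adjusted p by edgeR = 0.292). It was at 72.03, 67.1, 87.8 and 85.2 CPM in AAV8-Null and at 57.6, 64.6 and 68.4 in AAV8-IGFBP1. The groups overlapped, since AAV8-Null replicate 2 lay below AAV8-IGFBP1 replicate 3. Sqstm1, which encodes p62, was at 415 to 435 CPM in AAV8-Null and at 444, 385 and 442 in AAV8-IGFBP1 (-0.01, SE 0.07, adjusted p by edgeR = 0.972). Nbr1, a receptor related to p62, had a log2 fold change of 0.10 (adjusted p by edgeR = 0.544).

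The mitophagy genes mark mitochondria for removal. Pink1, the kinase that accumulates on damaged mitochondria, was at 573, 489, 516 and 667 CPM in AAV8-Null and at 581, 667 and 646 in AAV8-IGFBP1 (log2 fold change 0.17, SE 0.11, adjusted p by edgeR = 0.561). Its coefficient of variation in AAV8-Null, 14.0%, was the highest of the 30. The receptor genes of the outer mitochondrial membrane, Bnip3, Bnip3l and Fundc1, had log2 fold changes of -0.08, -0.05 and 0.15, and their adjusted p-values by edgeR were 0.586 to 0.811. All 4 overlapped between the groups.

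**Figure D3:**
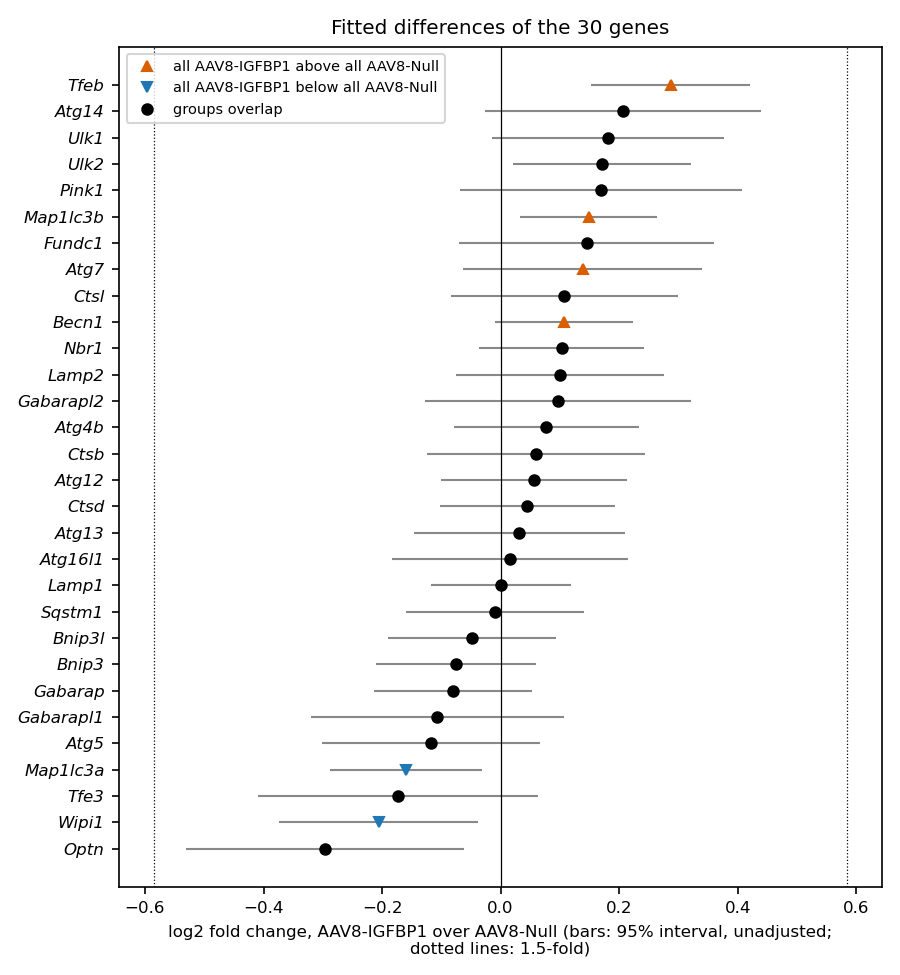
Log2 fold change of each of the 30 genes, AAV8-IGFBP1 over AAV8-Null, with its unadjusted 95% interval (bars) and dotted lines at 1.5-fold. Triangles mark the 6 genes whose groups did not overlap, and 6 intervals, those of Tfeb, Map1lc3b, Ulk2, Map1lc3a, Wipi1 and Optn, leave out 0.

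Several of these estimates moved when the level of the slow fibre markers was a covariate, an alternative that was added once the data had been seen. The log2 fold change went from -0.30 to -0.11 for Optn, from -0.21 to -0.08 for Wipi1, from -0.16 to -0.09 for Map1lc3a and from 0.17 to 0.06 for Ulk2. It went from 0.17 to 0.42 for Pink1 and from 0.02 to 0.22 for Atg16l1, away from 0. Tfeb had 0.36 (adjusted p by edgeR = 0.229) and Map1lc3b 0.11 (adjusted p by edgeR = 0.737) in that fit, and 0 of the 30 passed the test. The slow fibre level, the mean of log2 CPM centred over the 7 libraries, was 1.15, -0.31, 0.44 and 0.89 in AAV8-Null and -1.43, -0.65 and -0.10 in AAV8-IGFBP1. This level was mostly lower in AAV8-IGFBP1, so with 7 libraries its part and that of the group cannot be told apart by this fit. AAV8-Null replicate 2, the control with the lowest slow fibre level, also had the lowest control values of Optn, Pink1 and, narrowly, Wipi1 (64.2 CPM, next 64.4). For Map1lc3a the lowest control was AAV8-Null replicate 3 (98.4 CPM, against 101 in replicate 2). These genes were picked after the values were seen, and the part of slow fibre RNA in them was not tested.

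Levels can be set side by side only per length, here CPM per kb of the longest coding transcript in GENCODE M21. On this scale Pink1 (236 ± 33.0, SD, n = 4) and Ctsd (217 ± 13.6) led in AAV8-Null, and these neighbours did not differ beyond their spread. Lamp1 (161 ± 2.95) and Sqstm1 (160 ± 3.12) followed, also within their spread. Map1lc3a (92.4 ± 4.19) was the highest of the ATG8 genes by this length, above Gabarap (58.5 ± 3.22) and Map1lc3b (48.0 ± 1.098). With the shortest coding transcript instead, Map1lc3b was at 165 CPM per kb, above Map1lc3a at 92.4. Pink1 was then at 383 and Sqstm1 at 337, above Ctsd at 240 and Lamp1 at 161. The order of some of these genes therefore depends on the isoform, while Pink1 had the highest mean by either length. By the longest transcript the lowest were Atg7 (1.67 ± 0.0864) and Atg14 (1.68 ± 0.154).

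Beyond the 30, 144 other autophagy and lysosome genes were measured in 8 lists and 143 were tested. None passed edgeR's test. At an unadjusted edgeR p under 0.05 there were 16 with a log2 fold change above 0 and 3 below, together 13.3%. Over all genes tested there were 866 above and 1023 below, together 12.6%. DESeq2 called 2, Npc1 with a value above 0 and Stbd1 below, and limma-voom called 0. Of the 143, 89 (62.2%) had a log2 fold change above 0, beside 49.9% of all genes tested, and the median was 0.03. The counts above 0 given below for each list are to be read beside that 49.9%.

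Npc1, the lysosomal cholesterol exporter, had the lowest p of these genes. It was at 60.9, 65.9, 82.9 and 72.3 CPM in AAV8-Null and at 101, 88.4 and 95.2 in AAV8-IGFBP1, with no overlap (log2 fold change 0.43, SE 0.10, adjusted p by edgeR = 0.117). Npc1 passed only without AAV8-Null replicate 3 (adjusted p by edgeR = 0.0485), without the filter on low counts (0.00548) and by DESeq2 (0.00861). Over all alternatives its adjusted p ran from 0.00548 to 0.543. Among the nutrient sensors that hold TFEB in the cytoplasm, Rragd, a Rag GTPase, was at 249 to 287 CPM and at 347, 293 and 325, with no overlap (0.26, SE 0.08, adjusted p by edgeR = 0.189). Flcn, the GTPase-activating protein for RagC and RagD, had -0.22 (adjusted p by edgeR = 0.399). Of the 21 TFEB-family and nutrient-sensor genes tested, 12 lay above 0 (median 0.01). Tfec, a TFEB relative, was the 1 gene left untested for low counts.

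Stbd1, the receptor that binds glycogen, was at 32.7, 44.1, 52.4 and 33.4 CPM in AAV8-Null and at 30.97, 25.4 and 27.9 in AAV8-IGFBP1, with no overlap (log2 fold change -0.53, SE 0.18, adjusted p by edgeR = 0.294; DESeq2 adjusted p = 0.0451). Fkbp8, a mitophagy receptor, had 0.16 (adjusted p by edgeR = 0.292), and 10 of the 18 receptors in this list lay above 0. In the autophagosome machinery, the median of 23 genes was 0.0027. Its lowest p-values belonged to Rb1cc1, which encodes the FIP200 partner of ULK1 (0.17, adjusted p by edgeR = 0.314), and Pik3c3, the lipid kinase that works with Beclin 1 (0.21, adjusted p by edgeR = 0.355).

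For the 14 fusion genes, which bring autophagosome and lysosome together, 11 estimates lay above 0 (median 0.08), with the lowest p for Vps41 (0.16) and Tecpr1 (0.14), with adjusted p-values by edgeR of 0.298 and 0.373. The 17 subunits and partners of the proton pump that acidifies lysosomes had 11 above 0 (median 0.05), with the lowest p for Atp6v0a1 (0.17) and Atp6ap2 (0.24), at 0.292 and 0.326. The 31 other hydrolases had 18 above 0 (median 0.03), with the lowest p for Ctsc, the protease dipeptidyl peptidase 1 (0.30, adjusted p by edgeR = 0.252). Of 15 other lysosomal membrane genes 11 lay above 0 (median 0.08), with Laptm4b (0.26, adjusted p by edgeR = 0.238) next to Npc1. All 4 FoxO genes lay above 0, with the lowest p for Foxo4 (0.15) and Foxo6 (0.36), at 0.340 and 0.412.

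**Figure D4:**
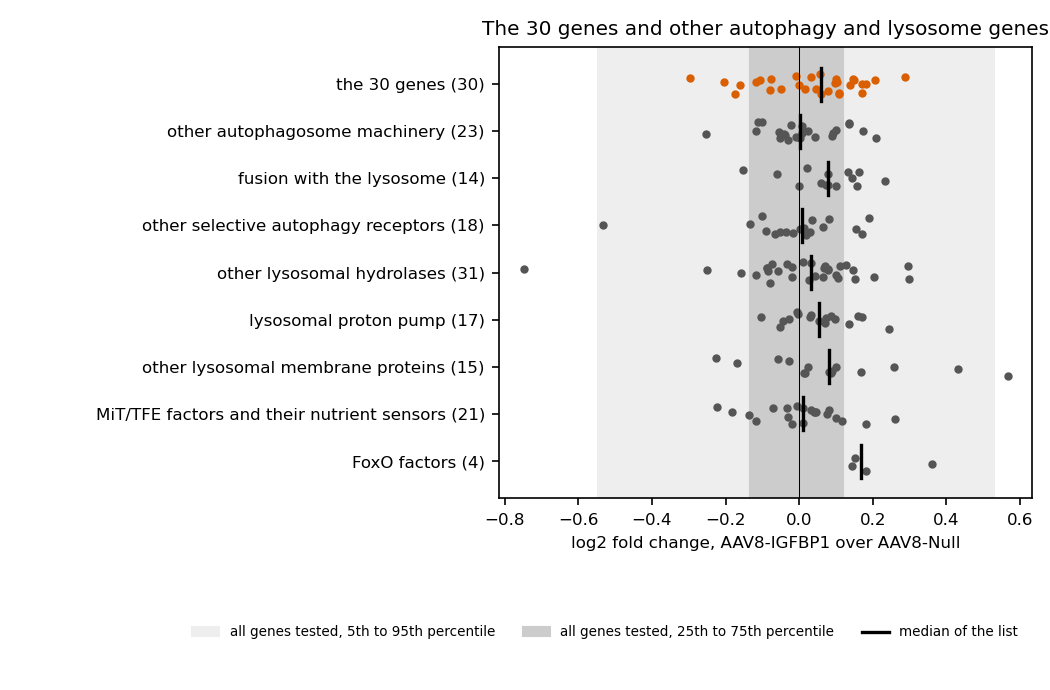
Log2 fold change of each gene (points) for the 30 genes and 8 lists of other autophagy and lysosome genes, with the number tested in brackets and list medians as black bars. Shaded bands span the 5th to 95th (light) and 25th to 75th (dark) percentiles of all 14935 genes tested, and all list medians but that of the 4 FoxO genes lie within the darker band.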

How the data were processed

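The tools named per the submitters' processing notes, without their roles, are Salmon 1.10.1, STAR 2.7.9a, cutadapt 3.4, R 4.2.2 and Trim Galore 0.6.7, and the build is GRCm39. The authors deposited estimated counts per gene symbol, 1 column per library. Annotation release and strandedness are not given in the sources used here. Reads shared with overlapping genes or processed copies could therefore be split. Libraries were grouped by title.

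Rounded to whole numbers, the estimated counts were filtered with edgeR 4.0.16 filterByExpr (minimum count 10, minimum total 15), scaled by TMM over the genes kept and tested with glmQLFit (robust) and glmQLFTest on group alone (R 4.3.3), with Benjamini-Hochberg adjustment over all 14935 genes. Standard errors are the size of the log2 fold change over the square root of F, and 95% intervals use the fit's t quantiles. CPM use the scaled totals and log2 CPM a prior count of 2. A count of 0 allows up to 3 counts, 0.0580 to 0.0786 CPM by library, for counting error only. Library pairs within a group differed beyond counting noise (20.4 to 54.6 chi-square units per degree of freedom), so none was a duplicate. The steps were tested on simulated data.

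Alternatives were DESeq2 1.42.0 on all genes with a count and with its own independent filtering, limma 3.58.1 voom, 2 other scalings, 2 other filters, the replicate number as a block, each library left out, and, added after the data were seen, a slow fibre covariate. The 30 genes, the lists and the tests were chosen with earlier results of these data known. The text names the 30, and per list the genes that passed or else the 2 with the lowest p, of which 1 is not reported here. Promoter windows and transcript lengths are from GRCm38 annotation and were not joined to positions of the counts.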

Additional observations from a re-analysis of the deposited data

Results flagged for a closer look

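Wipi1 in AAV8-Null replicate 4, at 71.3 CPM, lay far from the other 3 AAV8-Null libraries (64.2 to 65.0 CPM) against the group's range. It was the only such value among the 30 genes in AAV8-Null, where chance alone flags about 1 in 20. Groups of 3 were not examined this way.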

How the results depend on the processing

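The count of all genes called, 83, was 439 with DESeq2, which changed both the test and the filter (its own filtering, 27257 genes fitted), 306 without the filter on low counts, 27 with the slow fibre covariate, and 19 to 86 with 1 library left out. Among the 30 genes 1 was called with DESeq2 and 1 without the filter, in both cases Tfeb, and 0 in the other 13 alternatives. Among the 143 other pathway genes 2 were called with DESeq2, 1 without the filter and 0 to 1 with a library left out. The replicate number did not pair the libraries (correlations of same-numbered deviations -0.10, 0.07 and -0.06), and with it as a replicate block 19 genes were called over all genes, none of them among the 30. Of 450 refitted log2 fold changes of the 30 genes 15 changed sign, all of them in 8 genes, and the cause was not tested. With the slow fibre covariate these were Atg12 (-0.0263), Gabarapl1 (0.0471) and Fundc1 (-0.0436), and with upper-quartile scaling Lamp1 (-0.0022). With 1 library left out the ranges were -0.0394 to 0.101 for Atg13, -0.0638 to 0.0705 for Atg16l1, -0.0443 to 0.0553 for Sqstm1, -0.0446 to 0.112 for Ctsb and -0.0075 to 0.012 for Lamp1. The median of the 30 stayed between 0.03 and 0.09 in every alternative run. Depth left at least 224 counts for each of the 30 in every library.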

Other observations

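Ctsk, the collagen-degrading protease cathepsin K, and Npc2, the lysosomal cholesterol carrier, had the lowest and the highest log2 fold change of the 143 other pathway genes and were picked after their values were seen. Ctsk was at 2.98, 3.11, 4.37 and 2.02 CPM in AAV8-Null and at 2.63, 1.98 and 0.952 in AAV8-IGFBP1 (log2 fold change -0.75, SE 0.36, edgeR adjusted p = 0.445). Its highest and lowest libraries were those with the most and the least tenocyte marker RNA, 424 and 83.4 CPM summed over 10 genes. Fibroblast markers were highest and lowest in the same libraries, at 1479 and 640 CPM summed over 10 genes. Npc2 was at 21.0 to 27.9 CPM in AAV8-Null and at 29.2, 55.5 and 24.6 in AAV8-IGFBP1 (0.57, SE 0.30, edgeR adjusted p = 0.514). Its highest value was in AAV8-IGFBP1 replicate 2, the library rich in adipocyte RNA. Igfbp1 counts and, by little, macrophage and blood cell markers were highest there too. The part of these markers, or of Igfbp1, in either value was not tested. The ratio of Tfeb to Tfe3 within a library, also picked after the values were seen, was 5.03 to 6.21 in AAV8-Null and 9.24, 6.92 and 7.49 in AAV8-IGFBP1. Tfeb alone already separated the groups and the Tfe3 estimate was below 0, so this ratio adds no evidence.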
